A study of Mus musculus with 6 samples.

Results

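The hydroxysteroid dehydrogenases described here are 5 enzymes of the mouse uterus, Hsd11b1, Hsd11b2, Hsd17b2, Hsd17b4 and Hsd17b11. They were taken as all probe sets of the array whose annotation names one of these genes and no other, which gave 6 of the array's 12422 probe sets other than controls, for 5 of 8251 named genes. RNA came from whole uterine horns of 129/SvImJ wildtype females, 10 to 16 weeks old, whose ovaries, the main source of estrogen and progesterone, had been removed 14 days earlier. The groups were 5 times after 1 subcutaneous dose of 0.2 mg progesterone in 0.1 mL sesame oil (6, 12, 15, 18 and 24 h) and uninjected mice, called 0 h. Each group was 1 Affymetrix array of RNA pooled from 8 horns of 4 mice, so no group had a replicate, and the number of arrays limits the precision of every value. No array of mice given oil alone was analysed here, and the 0 h mice had neither oil nor an injection. Progesterone, the oil and the injection itself therefore cannot be told apart in the differences from 0 h. Whole horns hold epithelium, stroma, muscle and vessels together and may carry fat, so fewer cells of a type and less RNA per cell cannot be told apart.

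Hydroxysteroid dehydrogenases move hydrogen on or off a steroid and so turn active hormone into weak hormone or back, inside the cell where the receptor lies. Hsd11b1 and Hsd11b2 work in opposite directions on glucocorticoids: Hsd11b1, in the endoplasmic reticulum, mainly regenerates corticosterone with NADPH made by H6pd, and Hsd11b2 inactivates corticosterone and so protects the mineralocorticoid receptor from it. Hsd17b2, Hsd17b4 and Hsd17b11 act at carbon 17. Hsd17b2 oxidises estradiol to the weaker estrone and testosterone to androstenedione, and in human endometrium it is known as a progestin-induced enzyme of the epithelium. Hsd17b4, purified from pig endometrium as an estradiol dehydrogenase, is the peroxisomal D-bifunctional protein, whose main task is the oxidation of very long and branched fatty acids. Hsd17b11 can oxidise androstanediol and is a known protein of lipid droplets.

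All values are log2 expression as deposited, with the linear level (2 raised to that value) where given. Values under 6.60, the 40th percentile of the whole table, were treated as too low to measure, and probe sets above this floor on at least 2 of the 6 arrays were analysed, 7731 in all. The arrays had medians between 7.12 and 7.22. Across the analysed probe sets the 0 h array correlated with the progesterone arrays at 0.939 to 0.953, and the progesterone arrays with each other at 0.958 to 0.991, so the 0 h array, on which every difference rests, stands somewhat apart. The uterine label was borne out by defining markers: at 0 h the epithelial keratin Krt8 stood at 10.47, the stromal homeobox gene Hoxa10 at 9.47, the smooth muscle actin Acta2 at 12.07 and the receptor Pgr at 8.46. Of the 6 dehydrogenase probe sets, 4 passed the filter, those of Hsd11b1, Hsd11b2 (100493_at), Hsd17b4 and Hsd17b11, and each was above the floor on all 6 arrays. The probe set of Hsd17b2 and the other probe set of Hsd11b2 (161517_at) were below the floor on all 6.

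Promoters are shown for 2 of the 5 genes, Hsd11b1 and Hsd17b11. Hsd11b2 and Hsd17b2 had no entry in the RefSeq promoter table used here. Hsd17b4, which read higher than at 0 h, is not shown because its chromosome was left out when the promoters of the 5 genes were picked. The shares of all windows given below were taken without that exclusion. Both genes shown read lower than at 0 h on every progesterone array, as did 27.2% of analysed probe sets with complete values. Each window runs from 250 bases before the start of transcription to 50 bases after it, 5′ to 3′ on the gene's strand (GRCm38.p6, minus strand), at chr1:193242311-193242610 for Hsd11b1 and at chr5:104021747-104022046 for Hsd17b11. Capitals mark matches to any of 5 short motifs searched on both strands.
Hsd11b1: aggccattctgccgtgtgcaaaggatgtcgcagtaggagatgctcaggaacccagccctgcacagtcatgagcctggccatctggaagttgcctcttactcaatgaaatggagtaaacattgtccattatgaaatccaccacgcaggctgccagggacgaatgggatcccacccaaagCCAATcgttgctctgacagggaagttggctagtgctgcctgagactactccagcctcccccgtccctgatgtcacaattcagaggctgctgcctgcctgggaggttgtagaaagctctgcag
Hsd17b11: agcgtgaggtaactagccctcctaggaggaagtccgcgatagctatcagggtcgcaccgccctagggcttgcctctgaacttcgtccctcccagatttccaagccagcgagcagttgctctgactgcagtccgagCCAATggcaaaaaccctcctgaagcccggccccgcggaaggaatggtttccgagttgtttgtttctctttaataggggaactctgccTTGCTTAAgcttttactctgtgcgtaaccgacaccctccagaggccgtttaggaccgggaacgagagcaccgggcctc
Both windows hold the letters CCAAT once, 72 bases before the start in Hsd11b1 and 115 bases before it in Hsd17b11, and CCAAT lies in 37.4% of all 32851 windows of this length. The Hsd17b11 window also holds the letters TTGCNNAA of a C/EBP site 28 bases before the start, found in 10.8% of windows. The steroid receptor half-site AGAACA (19.0% of windows), the nuclear receptor half-site AGGTCA (16.3%) and TATAAA (13.6%) were not found in either. The motifs do not overlap each other in these windows, and a match is a stretch of letters only.

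The first comparison asked how the 5 arrays after progesterone, taken as a group, differed from the uninjected array. Hsd11b2, which inactivates corticosterone, rose: its level was higher on every progesterone array. Hsd17b11 had the largest difference of the 4 measured genes and was lower on each of them, but it missed the threshold after adjustment. Hsd17b4 was higher and Hsd11b1 lower on all 5 arrays without passing the test. The side alone is common: among analysed probe sets with complete values, 20.4% were above 0 h at all 5 times and 27.2% below. The plot of values by time shows the 6 probe sets on a common scale.

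**Figure D1:**
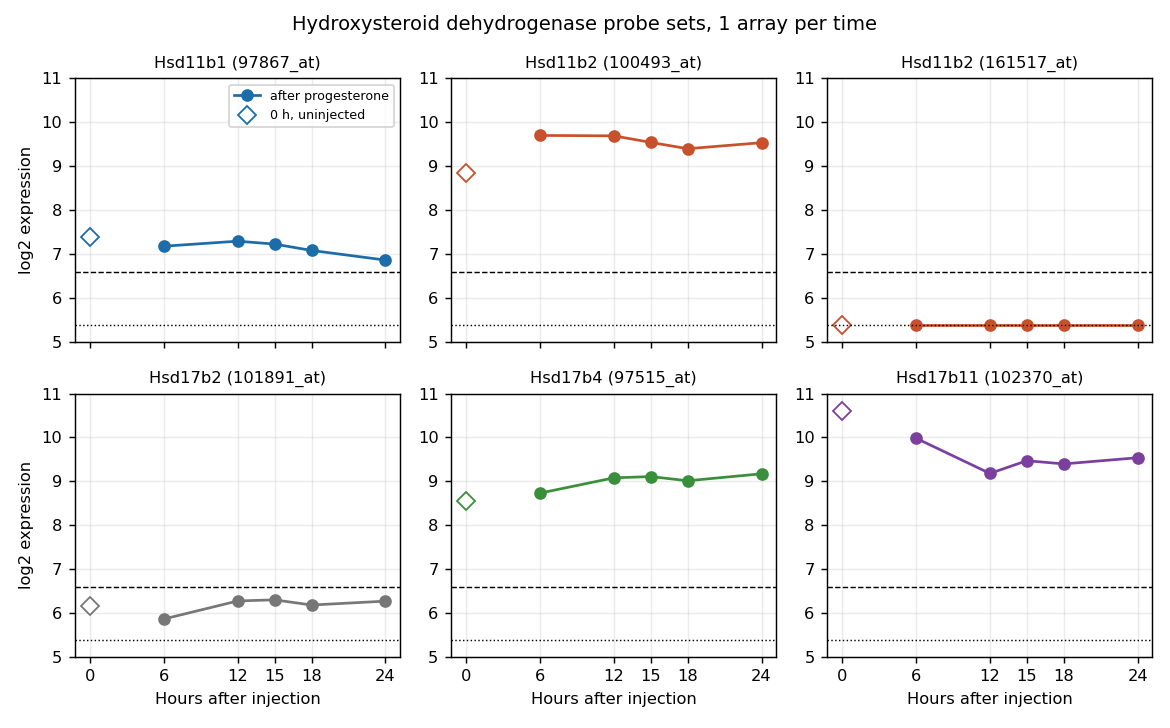
Log2 expression (vertical axis) against hours after injection (horizontal axis) for the 6 probe sets of the 5 hydroxysteroid dehydrogenases, 1 array per point; open diamonds are the uninjected 0 h array, filled circles the progesterone arrays, the dashed line the floor of 6.60 and the dotted line the table's lower limit of 5.39. Hsd11b2 (100493_at) sits at 9.40 to 9.70 after progesterone against 8.84 at 0 h, Hsd17b11 at 9.18 to 9.98 against 10.61, and Hsd17b2 and the other Hsd11b2 probe set stay below the floor.

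Hsd11b2 on probe set 100493_at had readings at 0, 6, 12, 15, 18 and 24 h of 8.84, 9.70, 9.69, 9.54, 9.40 and 9.54. On the linear scale its level averaged 764 ± 65.9 over the progesterone arrays (SD, n = 5 times) and was 459 on the 0 h array. The 0 h array was the lowest of the 6, as in 20.4% of analysed probe sets with complete values. It lay outside the range of the others, whose own spread was 0.30. The mean difference was 0.73 ± 0.15 (SE; 95% interval 0.39 to 1.07; limma adjusted p = 0.0446), a 1.66-fold rise, with the lone 0 h array assumed to vary like the others. In this test 69 of 7724 probe sets, 0.893%, were called higher and 139, 1.8%, lower, and 1465, 19%, had an unadjusted p under 0.05. The call of Hsd11b2 was close to the threshold: with limma its adjusted p was 0.0383 when the 6 h array was left out, and 0.138, 0.117, 0.0763 and 0.08 when those of 12, 15, 18 and 24 h were. Its mean difference stayed between 0.70 and 0.78 in those fits. The other probe set of Hsd11b2, 161517_at, stood at the lower limit of the table, 5.39, on all 6 arrays, so the rise rests on a single probe set.

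The highest readings of Hsd11b2 were the earliest, at 6 and 12 h, which were 0.01 apart. Relative to 0 h the differences were 0.86, 0.85, 0.70, 0.56 and 0.69 from 6 to 24 h, or 1.82-fold down to 1.47-fold, and no time reached 2-fold, as 1.41%, 1.83%, 2.05%, 1.14% and 1.06% of analysed probe sets did upwards at these times. At 6 h only 1.83% of analysed probe sets were as far above 0 h, against 5.04% at 18 h. Between neighbouring progesterone times Hsd11b2 moved by at most 0.15. The SD of the same steps among the 500 probe sets nearest to it in level was 0.15 to 0.26, so its order among the progesterone arrays was within that spread. Over all 6 arrays its linear trend was 0.44 ± 0.30 per 24 h (limma adjusted p = 0.517), and without the 0 h array the slope was -0.32 ± 0.21 (limma adjusted p = 0.428).

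Hsd11b1, the partner that regenerates corticosterone, had readings at 0, 6, 12, 15, 18 and 24 h of 7.40, 7.18, 7.29, 7.22, 7.08 and 6.86. Its linear level averaged 140 ± 15.6 over the progesterone arrays (SD, n = 5 times) and was 168 at 0 h. The 0 h array was the highest of the 6, but the gap to the 12 h array was only 0.10. The mean difference was -0.27 ± 0.17 (SE; 95% interval -0.65 to 0.11; limma adjusted p = 0.437), so the interval includes 0. Its lowest value was the latest: the difference from 0 h was -0.53 at 24 h, where 5.78% of analysed probe sets were as low or lower. The trend over hours was -0.45 ± 0.15 per 24 h (SE, limma adjusted p = 0.216, unadjusted 0.0203). Without the 0 h array the slope was -0.46 ± 0.22, and without the 24 h array it was -0.29 ± 0.20 (limma adjusted p = 0.487), so its size rested in part on the 24 h array. Hsd11b1 and Hsd11b2 thus lay on opposite sides of their 0 h values on every progesterone array, 0 of 5 above for Hsd11b1 and 5 of 5 for Hsd11b2. Among all analysed probe sets with complete values, 20.4% were above 0 h at all 5 times and 27.2% below, so the side alone is common, and the difference between the 2 genes was not tested.

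Hsd17b11, the lipid droplet member, had readings at 0, 6, 12, 15, 18 and 24 h of 10.61, 9.98, 9.18, 9.47, 9.40 and 9.54. On the linear scale this was 743 ± 162 over the progesterone arrays (SD, n = 5 times) and 1559 at 0 h. The 0 h array was the highest of the 6, so the groups did not overlap, as in 27.2% of analysed probe sets with complete values. The differences from 0 h were -0.63 at 6 h, then -1.43, -1.14, -1.21 and -1.07, which puts 0 h 1.54-fold above the 6 h level and 2.69-fold above the 12 h level. At 12, 15, 18 and 24 h it was at least 2-fold lower than at 0 h, as were 1.75%, 1.58%, 1.8% and 1.39% of analysed probe sets at those times, and 1.02% at 4 or more times. At 6 h, where 1.1% were 2-fold lower and 4.73% were as low as Hsd17b11, it was not.

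On the log2 scale the largest step of Hsd17b11 between neighbouring times was that from 6 to 12 h. On the linear scale the first step was larger, with levels of 1559 at 0 h, 1011 at 6 h and 579 at 12 h. Hsd17b11 was 0.80 lower at 12 h than at 6 h on the log2 scale, a step that 1.6% of the 500 probe sets nearest in level matched or passed, with an SD of 0.27. After that it stood 0.29 higher at 15 h than at 12 h (SD 0.20), and its later steps were within the SD. The mean difference of the progesterone arrays from 0 h was -1.09 ± 0.25 (SE; 95% interval -1.68 to -0.51), which is 2.14-fold lower, with a limma adjusted p of 0.0677. Its unadjusted p of 0.00253 was among the lowest 3.74% of probe sets. Without the 6 h array, whose reading lies between 0 h and the later ones, the difference was -1.21 ± 0.15 and passed (limma adjusted p = 0.017); without each of the other progesterone arrays the adjusted p was 0.114 to 0.166. In the whole table too, more probe sets were called without the 6 h array than with all 6 arrays. The trend of Hsd17b11 was -1.11 ± 0.35 per 24 h (SE, limma adjusted p = 0.187). It was -0.45 ± 0.38 without the 0 h array and -1.71 ± 0.37 without the 24 h array (limma adjusted p = 0.0853), so both ends of the series bear on its size.

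**Figure D2:**
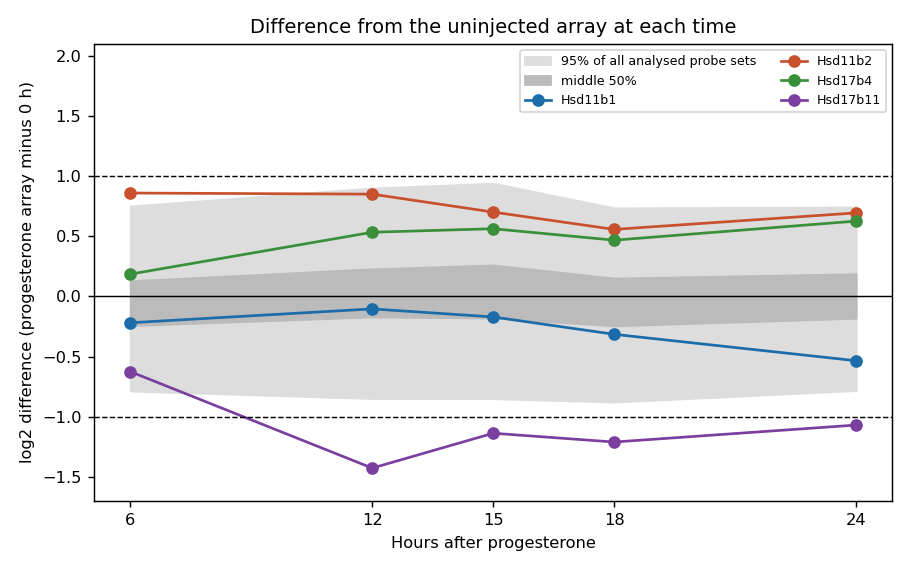
Log2 difference of each progesterone array from the 0 h array (vertical axis) by hours after progesterone (horizontal axis) for the 4 dehydrogenases above the filter, over bands that hold 95% and the middle 50% of all analysed probe sets; dashed lines mark 2-fold. Hsd17b11 leaves the wider band from 12 h on, at -1.43 to -1.07, Hsd11b2 is at its highest at 6 and 12 h (0.86 and 0.85), and Hsd11b1 stays in the wider band throughout.

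Hsd17b4, the peroxisomal enzyme, had readings at 0, 6, 12, 15, 18 and 24 h of 8.54, 8.73, 9.08, 9.11, 9.01 and 9.17. Its linear level averaged 522 ± 58.5 over the progesterone arrays (SD, n = 5 times) and was 373 at 0 h. The 0 h array was the lowest, as in 20.4% of analysed probe sets with complete values, and the 6 h array the next. The 4 later arrays were 0.16 apart at most. The mean difference was 0.48 ± 0.18 (SE; 95% interval 0.07 to 0.88; limma adjusted p = 0.196), and without the 6 h array it was 0.55 ± 0.10 and passed (limma adjusted p = 0.0391). That fit also called more probe sets of the whole table than the fit on all 6 arrays. The step of Hsd17b4 between 6 and 12 h was 0.35 against an SD of 0.25 among the 500 probe sets nearest in level, and 15.8% of them moved as far. At 24 h Hsd17b4 was 1.54-fold above 0 h, as far as or farther than all but 4.13% of probe sets in that direction.

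Of the 4 measured genes Hsd17b4 had the lowest p in the trend test, which asked which genes moved steadily with hours. Its slope was 0.63 ± 0.17 per 24 h (SE, limma adjusted p = 0.13, unadjusted 0.0053), and 0.50 ± 0.22 without the 0 h array (limma adjusted p = 0.234). 0 of the 4 genes passed this test with limma, in which 15 probe sets, 0.194%, rose and 9, 0.116%, fell, and 1254, 16.2%, had an unadjusted p under 0.05. At that unadjusted level 3 of the 4 genes, Hsd11b1, Hsd17b4 and Hsd17b11, passed, and without the 0 h array 0 of them did (limma unadjusted p = 0.0633, 0.0504 and 0.271). The plot of fitted differences sets both tests side by side.

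**Figure D3:**
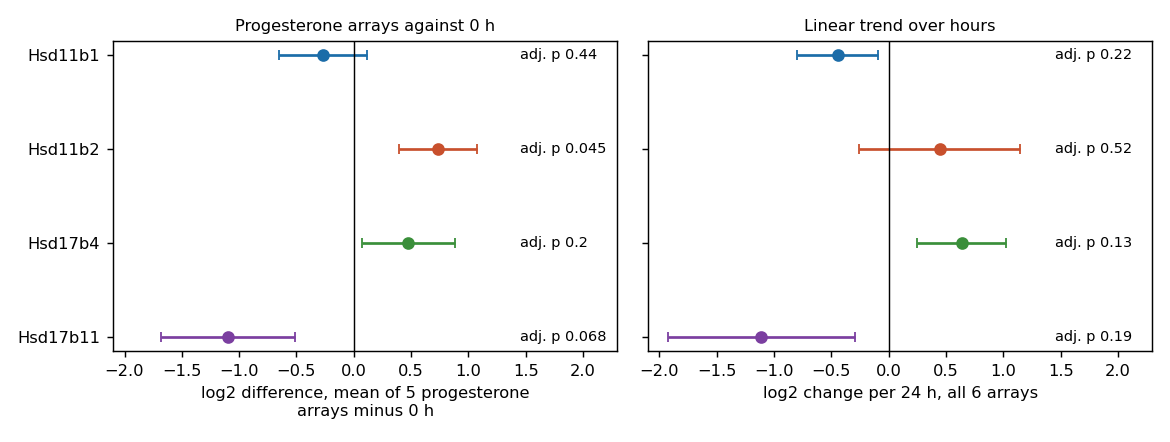
Left, mean log2 difference of the 5 progesterone arrays from 0 h, and right, fitted log2 change per 24 h over all 6 arrays, for the 4 dehydrogenases above the filter; points are limma estimates, bars their 95% intervals, and the limma adjusted p stands beside each. Only Hsd11b2 passed in the left panel (0.73, adjusted p = 0.0446) and none in the right.

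Hsd17b2, the estradiol-inactivating enzyme, had readings at 0, 6, 12, 15, 18 and 24 h of 6.15, 5.86, 6.27, 6.30, 6.18 and 6.27. The 0 h value lay inside the range of the others, and all 6 were under the floor of 6.60 and above the table's lower limit of 5.39. On the linear scale they spanned 58.1 to 78.7. With no floor, limma over 10030 probe sets gave a mean difference of 0.03 ± 0.18 (SE, adjusted p = 0.959). No difference was detected in that fit, and a signal under the floor on all 6 arrays leaves its level in the uterus unmeasured by this probe set.

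Hsd17b11 was the only member whose values spanned at least 2-fold above the floor, so the genes most like it over the 6 arrays were looked up among 367 others that also did. The closest were Vamp4, a vesicle SNARE protein (Pearson r = 0.990), Txndc16, a thioredoxin domain protein of the endoplasmic reticulum (r = 0.987), and Ltf, or lactoferrin, an estrogen-induced secretion of the epithelium (r = 0.981). These correlations describe 6 arrays on which 0 h is the highest value of each gene. Vamp4 differed from 0 h by -0.72 at 6 h and by -1.47 at 12 h, and Txndc16 by -0.69 and -1.20. Ltf differed by -1.79 at 12 h and by -1.62 at 24 h. They were chosen for following Hsd17b11 on these same arrays, so their own differences from 0 h are a description. Ltf is also one of the epithelial markers counted further on.

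Other hydroxysteroid dehydrogenases and steroid oxidoreductases were mostly too low to measure in these horns. Of 33 listed genes 18 had a probe set and 7 passed the filter, with 0 called in either limma test, 1 at an unadjusted p under 0.05 against 0 h and 2 in the trend. Hsd17b1, which makes estradiol, Hsd17b3, which makes testosterone in testis, and Hsd17b7, of estradiol and cholesterol synthesis, never exceeded 6.02, and Hsd3b1, of progesterone synthesis, stood at the lower limit on both of its probe sets. The median over the 7 measured genes was between -0.28 at 6 h and -0.03 at 15 h, against -0.05 to 0.03 over all analysed probe sets at the 5 times. Hsd17b12, a ketoacyl-CoA reductase of fatty acid elongation, and Akr1c13, an aldo-keto reductase, stood at the ends of the list and were chosen after their values were seen. Hsd17b12 differed from 0 h by 0.06 at 6 h and 0.99 at 15 h (limma adjusted p = 0.321), and Akr1c13 by -0.96 and -0.52 (limma adjusted p = 0.0963).

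Among enzymes of steroid synthesis and conjugation 7 of 22 genes were measured and 0 were called in either limma test, with 2 at an unadjusted p under 0.05 against 0 h and 0 in the trend. Their medians over times lay between -0.50 and 0.61. Star and Cyp17a1, which bring in cholesterol and open the way to androgens, were below the floor on all arrays. H6pd, which supplies NADPH to Hsd11b1, read 9.40 at 0 h and differed from it by 0.00, -0.10, -0.17, -0.10 and -0.26 from 6 to 24 h (limma adjusted p = 0.681). The 6 measured genes of NADPH supply had medians between -0.10 and 0.38, and 0 were called in either limma test, with 0 at an unadjusted p under 0.05 against 0 h and 2 in the trend. Of the receptors whose ligands these enzymes convert, 4 of 6 had a probe set and 2 were measured. Esr1, the estrogen receptor, differed from 0 h by a median of -0.61 (limma adjusted p = 0.0538), and Pgr, the progesterone receptor, by -0.31 (adjusted p = 0.363). The glucocorticoid receptor Nr3c1 read 6.14 to 6.60 and reached the floor on 1 array.

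The peroxisomal partners of Hsd17b4, which import or activate fatty acids or act before and after it, lay nearer to their 0 h values. The 13 measured of 25 listed had medians over times between -0.33 and 0.23, 8 above 0 and 5 below, and Hsd17b4 had 0.53. In limma 0 were called in either test, and 0 had an unadjusted p under 0.05 in either. The list median was -0.08 at 6 h and 0.17 at 24 h. The plot of partner genes shows them gathered near 0.

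The lipid droplet partners of Hsd17b11 were spread more widely. Of 13 measured of 24 listed, 1 fell and 0 rose in the test against 0 h, 7.69% of them against 1.8% of all probe sets called lower. The gene that fell was Pnpla2, the adipose triglyceride lipase, whose readings at 0, 6, 12, 15, 18 and 24 h were 9.10, 8.42, 8.39, 8.19, 8.31 and 8.30. Its mean difference was -0.78 ± 0.14 (SE, limma adjusted p = 0.0308), and every progesterone array lay below 0 h. It passed without the 6 h array (limma adjusted p = 0.0213) and not without any of the other 4 (0.0669 to 0.106). Over the 13 genes 9 had a median below 0 and 4 above, the list's median was -0.28 to -0.14 by time, and 0 passed the trend test, with 3 at an unadjusted p under 0.05. Plin2, the main droplet coat protein outside fat, differed by a median of -0.51 (limma adjusted p = 0.108), and the lipases Lipe and Mgll by -0.85 and -0.73 (adjusted p = 0.136 and 0.177). Plin2, Lipe and Mgll were named with their values known.

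**Figure D4:**
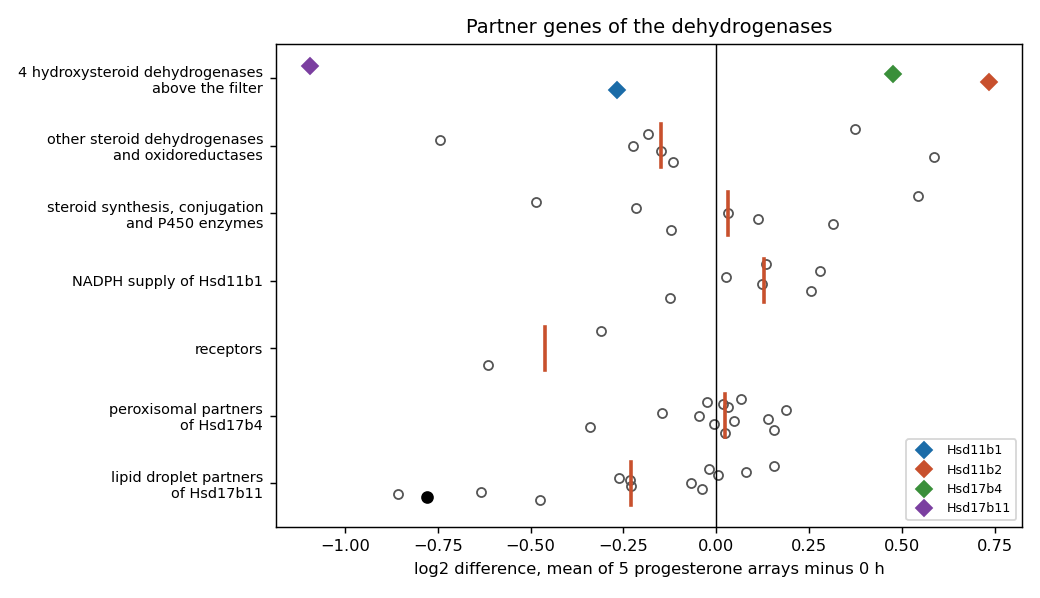
Mean log2 difference of the 5 progesterone arrays from 0 h (horizontal axis) for the 4 dehydrogenases above the filter (coloured diamonds) and for each measured gene of 6 partner lists (circles, 1 probe set per gene), with red bars at list medians; a filled circle is a gene called by limma. Pnpla2, in the lipid droplet list at -0.78, is the only gene called, and the peroxisomal partners of Hsd17b4 lie near 0.

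Markers of other cell types moved on the same arrays. Adipocyte markers had median differences from 0 h of -0.71, -0.76, -0.99, -0.98 and -0.86 from 6 to 24 h, and all 7 with a 0 h value had medians below 0. Those of Slc2a4 and Lep were close to 0 (-0.01 and -0.09), and both genes stood above 0 h at 24 h (0.24 and 0.02). The summed linear level of these 7 genes was 3015 to 4983 on the progesterone arrays and 8313 at 0 h. Of 12 such genes on the array 8 passed the filter, and Fabp4, Cidec, Pparg and Cidea did not. Adipose tissue is known to express Hsd11b1, Pnpla2 and Lipe, and the part of fat in the lower readings of Hsd17b11, Hsd11b1 and these lipases was not tested. Single fat genes lay further below 0 h than Hsd17b11 at 15, 18 and 24 h, where Hsd17b11 differed by -1.14, -1.21 and -1.07. Adipoq, the fat hormone adiponectin, differed by -2.53, -1.72 and -2.19 at these times, Car3, a carbonic anhydrase, by -2.39, -1.35 and -1.95, and Scd1, a fatty acid desaturase, by -1.80, -1.29 and -1.72. At 12 h they differed by -0.96, -0.82 and -0.85, against -1.43 for Hsd17b11. At 6 h they differed by -1.03, -0.86 and -0.70, against -0.63 for Hsd17b11, which also stood above the adipocyte median of -0.71. Thrsp and Retn lay below Hsd17b11 at 6 h too (-1.21 and -0.71), and Lep and Slc2a4 above it (-0.21 and -0.36). With limma 0 of the 8 were called in either test, and 5 had an unadjusted p under 0.05 against 0 h and 4 in the trend.

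Epithelial markers were lower too, by medians of -0.48, -0.55, -0.55, -0.63 and -0.43, with 15 of 18 measured genes below 0. Their summed levels were 12425 to 14565 on the progesterone arrays against 18343 at 0 h. The 3 with medians above 0 were the claudins Cldn3, Cldn4 and Cldn7 (0.47, 0.16 and 0.11), and Cldn3 was above 0 h at all 5 times. Lcn2, with a median of -0.76, was above 0 h by 1.14 at 6 h and 0.24 at 12 h, and below it from 15 h on. Its readings at 18 and 24 h (5.84 and 5.85) were under the floor, which limited both differences to -1.03. In limma 3 of the 18, 16.7% against 1.8% of all probe sets, fell against 0 h: the keratin Krt18 (-1.03 ± 0.16, adjusted p = 0.0237), the adhesion protein Epcam (-1.12 ± 0.14, 0.0104) and Ltf (-1.58 ± 0.29, 0.0346). Epcam passed in all 11 alternatives in which it was measured, whereas Krt18 and Ltf did not pass without any of the 12, 15, 18 or 24 h arrays (limma adjusted p = 0.0595 to 0.0972 and 0.0798 to 0.119) or with no filter (0.0634 and 0.148). The keratin Krt7 fell in the trend, as 0.116% of probe sets did (-1.51 ± 0.22 per 24 h, limma adjusted p = 0.0465), and with an array left out it passed only without that of 24 h (0.032; otherwise 0.0633 to 0.191). Of 22 epithelial genes on the array, Wnt7a, Ehf, Spint2 and Sprr2f did not pass the filter. At each time Hsd17b11 stood further below 0 h than the epithelial median, though not than every epithelial gene. Ltf lay lower still at all 5 times, and Epcam did at 6 and 24 h (-1.01 and -1.27). Krt7 did at 18 and 24 h (-1.45 and -1.34) and matched Hsd17b11 at 15 h (both -1.14). At 6 h, where Hsd17b11 differed by -0.63, Cd24a, Elf3, Foxa2, Krt18 and Muc1 also lay lower (-1.01, -0.90, -0.87, -0.82 and -0.78). At 12 h only Ltf did. At the same times Hsd11b2 and Hsd17b4 stood above 0 h.

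Stromal markers had medians of -0.04 to 0.23 and sums of 18953 to 23166 against 18203, and 13 of 15 passed the filter. Over the times 8 of the 13 had a median above 0, the largest being those of Col1a1 and Col3a1 (1.35 and 0.85), which are part of the sums. The other 5 had medians below 0: Thy1, Dpt, Dcn, Lum and Hoxd10 (-0.52, -0.41, -0.31, -0.26 and -0.15). Against 0 h 0 were called in limma, with 6 at an unadjusted p under 0.05, but 2, the fibrillar collagens Col1a1 and Col3a1, rose in the trend, as 0.194% of all probe sets did. Col1a1 differed from 0 h by 0.51, 1.25, 1.35, 1.61 and 1.79 from 6 to 24 h (slope 1.88 ± 0.18 per 24 h, limma adjusted p = 0.0186), and Col3a1 by 0.25, 0.85, 0.85, 1.12 and 1.08 (slope 1.22 ± 0.18, adjusted p = 0.0482). With an array left out the trend of Col1a1 passed without the 0 h or 24 h array and not without the others (limma adjusted p = 0.0507 to 0.134), and that of Col3a1 passed only without the 24 h array (otherwise 0.0655 to 0.199). With no filter neither did (0.185 and 0.268). Smooth muscle markers had medians of -0.10 to 0.54, and 9 of 9 passed, with sums over 8 complete genes of 16215 to 22898 against 16843. Endothelial markers had medians of -0.22 to 0.04 and sums of 3618 to 4107 against 4764, with 9 of 10 passing. Among these the tight junction protein Cldn5, 1 of 9 or 11.1%, fell: it differed from 0 h by -1.05, -1.34, -1.29, -1.47 and -1.29 from 6 to 24 h (mean -1.29 ± 0.16, limma adjusted p = 0.0104), and was called without each array but that of 12 h (0.0575). Macrophage and leukocyte markers had medians of -0.37 to -0.05 and sums of 4393 to 5007 against 5266, with 10 of 15 passing. Erythrocyte markers had medians of -0.30 to 0.32 and sums of 3355 to 5815 against 4405, with 4 of 4 passing. In the smooth muscle, macrophage and erythrocyte lists limma called 0 genes in either test, with 3, 2 and 0 at an unadjusted p under 0.05 against 0 h and 5, 1 and 0 in the trend. The part of these cell types in the values of the dehydrogenases was not tested.

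**Figure D5:**
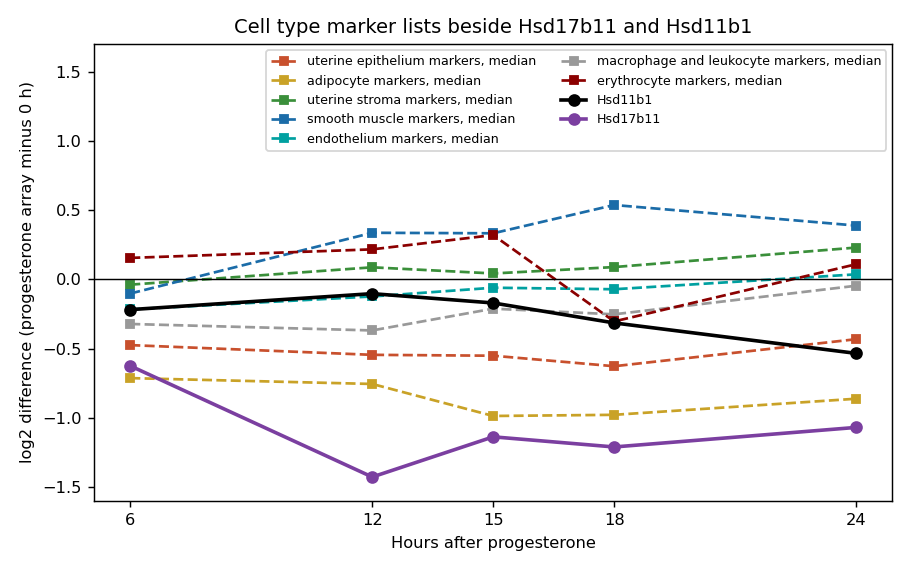
Log2 difference from 0 h (vertical axis) by hours after progesterone (horizontal axis) for Hsd17b11 and Hsd11b1 (solid lines, 1 probe set each) and the medians of 7 cell type marker lists (dashed lines). At 6 h the adipocyte median (-0.71) lies below Hsd17b11 (-0.63). From 12 h on Hsd17b11 lies below every list median, though single adipocyte genes lie lower at 6 h and from 15 h on. From 12 h the adipocyte median is next at -0.99 to -0.76, and the epithelial list lies at -0.63 to -0.43.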

How the data were processed

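Expression was measured on 6 Affymetrix arrays, 1 per time. Per the labels, RNA was prepared, labelled and hybridized as Affymetrix recommends. The authors deposited log2 expression, 1 value per probe set. Software, background correction and normalization: not given in the sources used here. The base was settled from the numbers: taken as powers of 2, 99.8% of linear values below 2000 end at 4 decimals (tolerance 0.05 of that decimal), and 6.42% as powers of e. A shared lower limit of 5.39 (42.0 linear) compresses differences of weak probe sets. The 2% trimmed means of the arrays deviated by -4.10% to 3.42% from their median, under the 5% allowed, so no scaling was added.

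Everything under the 40th percentile (6.60, or 96.9 linear) was set to it, and 7731 of 12422 probe sets above it on at least 2 arrays were analysed, after 65 controls were left out. Missing values (121) stayed missing. Probe sets were named from the platform annotation where it gives 1 symbol (10833, of which 10817 matched current identifiers). A gene with several probe sets is represented in lists by the one with the highest mean. limma 3.58.1 (R 4.3.3), with lmFit and an intensity trend in eBayes, set the 5 progesterone arrays against 0 h and, separately, fitted hours as a number, each with 4 residual degrees of freedom and Benjamini-Hochberg adjustment over all probe sets tested. "Rose" and "fell" mean an adjusted p under 0.05. The fits were tested on simulated data. Single times have no test. Differences between arrays measure only the spread between pools at different times. Named genes were all members, the 3 genes most like each member spanning 2-fold, H6pd, and genes of the partner lists called or 2-fold from 0 h at 2 or more times. Marker list genes, and the other genes named for their role or values, lie outside this rule and were chosen with their values known. Alternatives were other floors, no filter, quantile normalization, median centring, no intensity trend and each array left out. The members and lists were chosen with earlier results of these data known.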

Additional observations from a re-analysis of the deposited data

Results flagged for a closer look

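The Hsd17b2 reading at 6 h, 5.86, stood apart from those at 12, 15, 18 and 24 h, which lay between 6.18 and 6.30. Its gap to the nearest of them is large for the range of 5 values, a mark that chance gives about 1 in 20 groups. All of these values are below the floor of 6.60.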

How the results depend on the processing

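No paired analysis was possible because each group is a single array and the labels give no replicate numbers. The count of dehydrogenases called against 0 h was 1, and 0 with no filter on expression, where Hsd11b2 had a limma adjusted p of 0.0883 among more probe sets tested. With 1 array left out in turn it was 0 to 3, and 43 to 590 probe sets of the whole table were called, against 208. Hsd11b2 kept its direction against 0 h in all 12 alternatives and its call in 7 (adjusted p 0.038 to 0.138). Hsd17b11 and Hsd17b4 kept theirs in 12 of 12 and passed in 1, without 6 h. The counts against 0 h, of dehydrogenases and of the whole table, were both at their highest without the 6 h array. Hsd11b1 kept its direction in 11 of 11, since it did not pass the floor at the 60th percentile. In the trend 0 dehydrogenases were called in every alternative run, and the whole table gave 24 calls, 10 with quantile normalization, 0 with no filter (limma, 1219 at an unadjusted p under 0.05) and 0 to 147 with an array left out. The slope of Hsd11b2 was 0.44 per 24 h and ran from -0.32 without the 0 h array to 0.66 without the 6 h array, and the other slopes kept their signs. The cause of these changes was not tested. Without replicates, and with each difference resting on 1 uninjected array, differences of the size of those of Hsd11b1 and Hsd17b4 were not resolved. Low signal limits Hsd17b2 and the Hsd11b2 probe set 161517_at, for which no level was measured.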
